A study of Mus musculus with 2 samples.

Results

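The cells described here were Sox4+ conventional dendritic cells (cDCs) of the mouse spleen in which no Ccr2 transcript was counted. They were the cells of cluster 3 (C3) in the deposited clustering at resolution 0.5 that held 0 unique molecular identifiers (UMIs) of Ccr2 in the raw counts of either library. The rule found 1452 of the 24343 cells, which were 479 of 12224 cells (3.92%) in the WT library and 973 of 12119 cells (8.03%) in the Batf3-/- library. The remaining 793 cells of C3, 225 in WT and 568 in Batf3-/-, held at least 1 Ccr2 UMI. The main comparison was with the cDC2a of cluster 0 (C0), which numbered 3176 and 2961 cells. Both the cluster and the Ccr2 rule were read from the same transcripts, so the gene differences given below are descriptions of cells that were chosen by such values. The antibody-derived tags (adt) played no part in the choice.

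CITE-seq counts the transcripts of single cells together with barcoded antibodies bound to their surface. Both groups were female C57BL/6 mice aged 8 weeks, either wildtype (WT) or Batf3-/-, that is without the transcription factor that cDC1 development depends on. The WT mice came from the Animal Resources Centre, whereas the Batf3-/- mice were of Jackson Laboratories origin and were bred by the authors, so the colonies differed. Spleens of 6 mice per genotype were pooled, T and B cells were depleted, and live CD11c+ MHCII+ cells were sorted into 1 library per genotype in an experiment performed once. With n = 1 library per genotype and no record of which mouse a cell came from, no test was possible and values are given for the libraries side by side, WT first throughout. A level is given as CPM, the summed UMIs of a gene scaled to the total UMIs of a group, with an exact Poisson 95% interval, and a ratio is the log2 ratio of 2 levels with an exact binomial interval. All intervals cover counting error only.

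Conventional DCs capture antigen and present it to T cells on MHC molecules. The cDC1 carry Xcr1 and Clec9a and cross-present to CD8+ T cells, whereas cDC2 carry Sirpa and include the Notch-dependent, Esam-bearing cDC2a of the spleen. Plasmacytoid DCs (pDCs) secrete type I interferon and are maintained by the E protein Tcf4, which is opposed by Id2. Sox4 is an HMG-box transcription factor known from progenitor cells, and Ccr2 is the chemokine receptor by which monocytes and some DCs leave the bone marrow.

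Depth bore on the choice of cells. The chosen cells had a median of 7894 and 8678 UMIs, against 9668 and 10324.5 in C3 cells with Ccr2 and 6648 and 7187 in C0. Of all C3 cells, 68.0% (64.5 to 71.5, Clopper-Pearson) in WT and 63.1% (60.7 to 65.6) in Batf3-/- were without a Ccr2 UMI. Among C3 cells with 5000 to 8000 UMIs this share was 89.8% and 91.4%, and among those with 8000 to 12000 UMIs it was 52.3% and 55.8%. It was 97.0% and 90% below 5000 UMIs, on 33 and 30 cells, and 60.4% and 43.5% from 12000 UMIs, on 53 and 239 cells. Their part in the differences from C3 cells with Ccr2 was not tested, but the number of genes past 2-fold is given below also for cells of at least 8000 UMIs. The libraries shared 56 cell barcodes, and 1 WT and 5 Batf3-/- chosen cells carried a shared barcode, none of them with another chosen cell. SingleR labels deposited with the data named 479 of 479 and 970 of 973 of the cells DC. In C0, which served as a cell type without Ccr2, 1.04% and 1.76% of cells held a Ccr2 UMI.

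The label rested on Sox4, Esam and Cd7, and of these Sox4 set the cells apart from C0. Sox4, at chr13:28948919-28953713 on the minus strand (GRCm38, GENCODE M21), stood at 666 CPM (640.5 to 692) in WT and 767 CPM (749 to 786) in Batf3-/-. Its level in C0 was 47.9 and 57.6 CPM, so the log2 ratio was 3.80 (3.69 to 3.90) in WT and 3.73 (3.65 to 3.82) in Batf3-/-. Esam, an adhesion molecule first known from endothelium, which marks Notch-dependent cDC2 (chr9:37528078-37538319), was lower in the cells than in C0, at 15.7 and 16.6 CPM against 43.5 and 42.8 CPM. Cd7, an immunoglobulin superfamily receptor shared by cDC2a (chr11:121036747-121039418), was near the level of C0, at 419 and 430.5 CPM against 400 and 367 CPM. The cells were therefore Sox4+ and Cd7+ but Esam low relative to C0. Esam was below the mean of 50 CPM that was required for a gene to enter the counts below.

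Sox4 was spread over most of the cells. A Sox4 UMI was missing in 18.2% and 15.1% of them, the median cell held 3 and 5 UMIs, and the highest held 48 and 69. After each cell had been thinned to 2000 UMIs, 58.9% and 60% of the cells held a Sox4 UMI, against 5.68% and 7.46% in C0, where 9 and 25 cells under 2000 UMIs were left out. In the cDC1 of cluster 4 (C4), a cell type that should lack the gene, 1.18% of the thinned WT cells held one, at a median depth of 15398.5 UMIs before thinning. C4 held 2202 WT and 31 Batf3-/- cells.

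**Figure D1:**
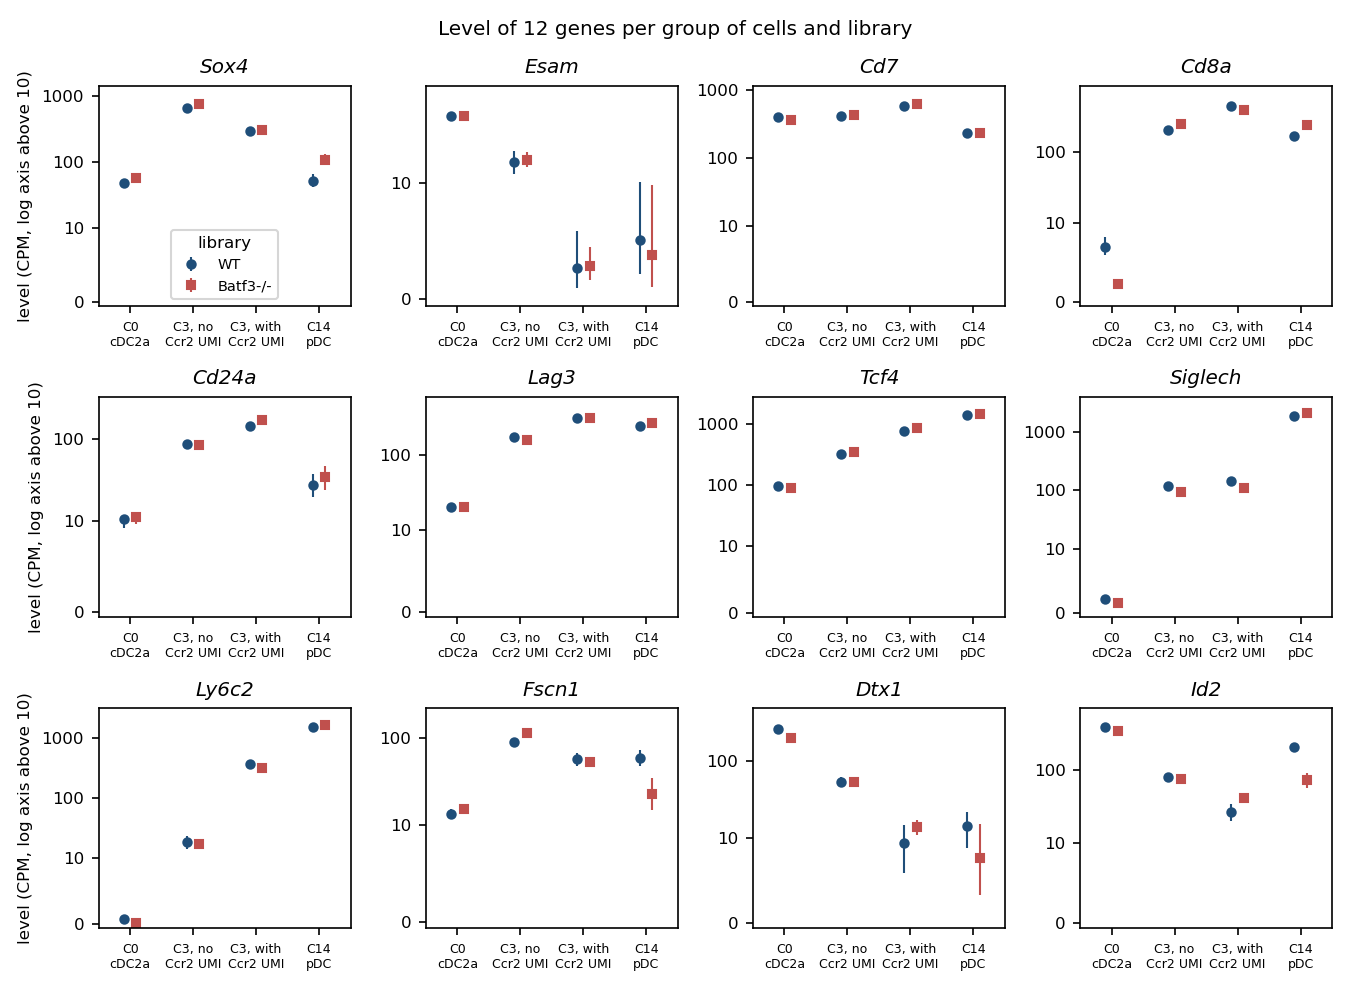
Levels of 12 genes in CPM (log axis above 10) in C0, in C3 cells without and with a Ccr2 UMI and in C14 pDCs, for the WT (circles) and Batf3-/- (squares) library, with bars for exact Poisson 95% intervals. Sox4 and Fscn1 were highest in the C3 cells without Ccr2, whereas Cd8a, Cd24a, Lag3, Tcf4 and Ly6c2 lay between C0 and C3 cells with Ccr2.

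Against C0, 34 genes were more than 2-fold higher and 63 more than 2-fold lower in the cells in both libraries. A gene was counted if it averaged 50 CPM or more over the 2 groups in each library, which 2559 genes did, so that 1.33% and 2.46% of them were past 2-fold, and the median log2 ratio over the 2559 was -0.02 and -0.02. The genes furthest above C0 included Cd8a, Sox4, Clec12a, Lag3, Fscn1, Stmn1, Gsr, Bst2 and Tcf4. The 10 furthest below were Ccnd2, Tgm2, Tgfbi, Fgl2, Gpr141, Id2, Adgre1, Adgrl3, Isg15 and Ncf4. A gene low in 1 group was counted only if it was high in the other. Cd8a, Clec12a, Lag3, Fscn1, Stmn1 and Gsr entered in this way through the cells, as did Sox4 in WT. Of the 10 furthest below, all but Id2 and Ncf4 entered through C0. The counts by list below share this limit, and the shares of 1.33% higher and 2.46% lower over all genes stand beside them.

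Among transcription factors, the E protein Tcf4 stood at 316 and 338 CPM in the cells and at 95.6 and 88.1 CPM in C0, a difference of 3.31-fold and 3.83-fold. Its antagonist Id2 went the other way, with 79.9 and 76 CPM against 387 and 347 CPM in C0, or 4.85-fold and 4.56-fold lower. Spib, an Ets factor of pDCs and B cells, was at 75.3 and 72.6 CPM against 17.4 and 25.3 CPM, and its mean was too low to enter the counts. Across E proteins, Id proteins and their partners, 4 of 11 genes in the files were counted, of which Tcf4 was higher and Id2 lower, and the median log2 ratio was -0.02 and 0.06. Of 39 lineage transcription factors 12 were counted and Sox4 was the 1 past 2-fold. Irf8, the factor of cDC1 and pDCs, was low at 32 and 19.5 CPM against 21.3 and 15.4 CPM in C0, and 2960.1 and 2996 CPM in the pDCs of cluster 14 (C14). Irf4, the factor of cDC2, was at 40.1 and 40.6 CPM against 24.7 and 24.5 CPM.

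The Notch pathway list gave 3 counted genes of 24, and 1 of them, the Notch target Dtx1, was lower at 53.5 and 52.3 CPM against 261 and 199 CPM in C0. Notch2, the receptor that splenic cDC2a depend on, was at 44.6 and 48.5 CPM against 47 and 46.4 CPM, and Rbpj, the nuclear partner of Notch, at 68.7 and 61.7 CPM against 62.6 and 63.3 CPM. The receptor and its partner thus stood near the level of C0 while Dtx1 and Esam were lower.

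Among the genes counted, the largest ratio was that of a surface receptor, although Siglech and Cd209d, too low to be counted, had larger ones in WT. Cd8a, the CD8 alpha chain of cDC1 and T cells (chr6:71373427-71379173), was at 204 CPM (191 to 219) in WT and 254 CPM (244 to 265) in Batf3-/-. C0 held 6.97 CPM (5.9 to 8.17) and 2.19 CPM (1.62 to 2.91), so that the log2 ratio was 4.87 (4.62 to 5.13) in WT and 6.86 (6.44 to 7.30) in Batf3-/-. The larger ratio in Batf3-/- went with the lower level in C0 of that library, which also held 31 rather than 2202 C4 cDC1, and the part of free RNA from cDC1 was not tested. After thinning, 18.8% and 23.7% of the cells held a Cd8a UMI against 1.26% and 0.341% of C0.

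Clec12a, an inhibitory C-type lectin, was at 111 and 103 CPM against 8.25 and 9.78 CPM in C0, and Lag3, an inhibitory receptor that binds MHC class II, at 175 and 162 CPM against 20.3 and 20.3 CPM. Bst2, or tetherin, which marks pDCs and responds to interferon, was at 327 and 292 CPM against 88 and 84.7 CPM. All 3 were past 2-fold in both libraries and stood higher still in C3 cells with Ccr2 and in C14. Cd24a, a glycoprotein of cDC1, was at 87.2 and 85.8 CPM against 10.5 and 11.1 CPM, and Cx3cr1, the fractalkine receptor, at 48.9 and 49.7 CPM against 3.44 and 5.26 CPM. Both were under a mean of 50 CPM and entered no count. Flt3, the receptor that drives DC development, was counted and stood at 242 and 233 CPM against 115 and 109 CPM.

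Structural and metabolic genes among those furthest above C0 included Fscn1, Stmn1 and Gsr. Fscn1, which bundles actin and is known from migrating mature DCs, was at 89.5 and 114 CPM against 13.5 and 15.3 CPM in C0. Stmn1, which destabilises microtubules, was at 113 and 122 CPM against 18.9 and 22.8 CPM. Tubulins Tuba1a and Tubb5 were also among the 34 genes. Gsr, glutathione reductase, was at 140 and 171 CPM against 23.5 and 43.2 CPM. The log2 ratio of Gsr was 2.57 and 1.98.

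The genes furthest below C0 are described next. Ccnd2, cyclin D2, was at 13.4 and 11.7 CPM against 122 and 98.1 CPM, a log2 ratio of -3.18 (-3.60 to -2.79) in WT and -3.07 (-3.37 to -2.78) in Batf3-/-. Tgm2, tissue transglutaminase, was at 19.8 and 23.8 CPM against 193 and 141 CPM, and Tgfbi, a secreted matrix protein, at 18.8 and 19.3 CPM against 105 and 114 CPM. These 3 were between 5.61-fold and 9.77-fold lower than in C0.

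Fgl2, a fibrinogen-like secreted protein, stood at 21.3 and 15.3 CPM against 118 and 98.1 CPM in C0. The orphan receptor Gpr141 was at 29.4 and 35.7 CPM against 195 and 189.9 CPM, and the adhesion receptor Adgrl3 at 23.8 and 35.1 CPM against 156 and 143 CPM. Adgre1, which encodes the macrophage marker F4/80, was at 16 and 26.8 CPM against 95.8 and 117 CPM. It was the 1 macrophage gene of 7 with enough counts, and the summed level of the 7 was 24.3 and 41.5 CPM in the cells and 105 and 128 CPM in C0. Isg15, a ubiquitin-like protein induced by interferon, was at 34.5 and 27.8 CPM against 159.6 and 112 CPM, and Ncf4, a subunit of the phagocyte oxidase, at 57.1 and 56.3 CPM against 243 and 222 CPM.

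**Figure D2:**
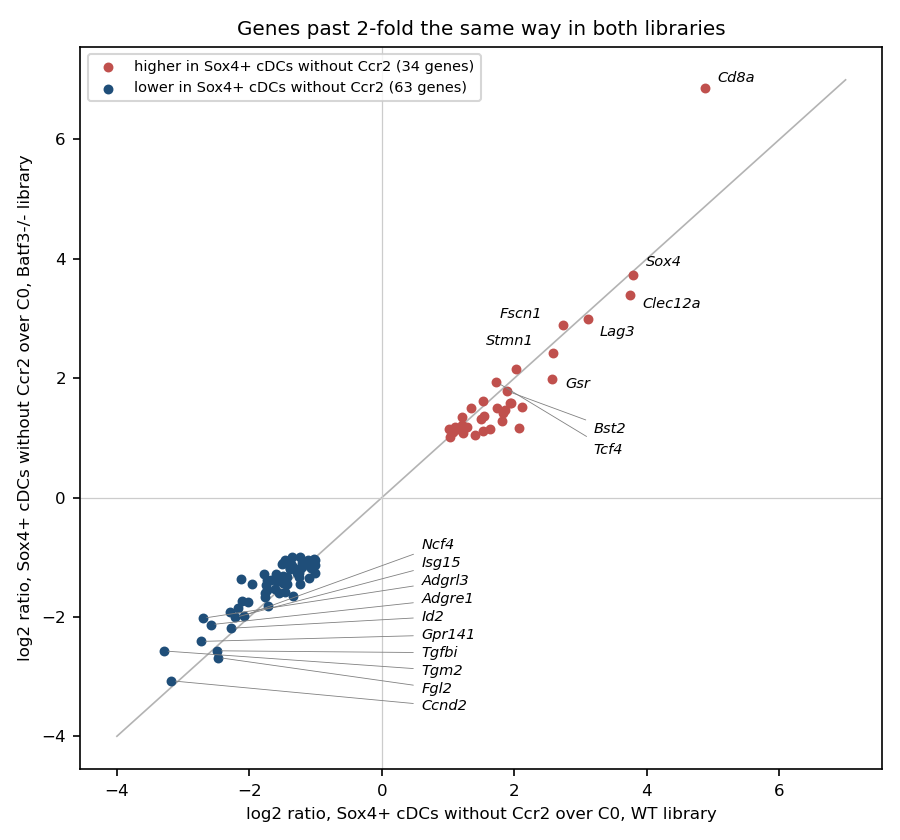
Log2 ratio of level in Sox4+ cDCs without Ccr2 over C0 in the WT library (x) and the Batf3-/- library (y) for the 97 genes past 2-fold the same way in both; the line marks equal ratios. Cd8a stood furthest out at 4.87 and 6.86, and the genes below C0 reached down to -3.29 in WT and -3.07 in Batf3-/-.

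Most general cDC genes counted were within 2-fold of C0, whereas 4 of 7 counted genes of cDC2a were lower. Of 10 general cDC genes all were counted, 1 (Flt3) was past 2-fold, and the median log2 ratio to C0 was 0.26 and 0.29. H2-Aa, an MHC class II chain, was at 10703 and 10406 CPM against 8333 and 8098 CPM, and Zbtb46, a transcription factor restricted to cDCs among leukocytes, at 48.7 and 56.8 CPM against 69.6 and 70.5 CPM. Of 14 MHC class II presentation genes counted, 1 was lower, H2-Eb2. Of 13 cDC2a genes 7 were counted, none was past 2-fold higher, and the 4 lower were Dtx1, Ffar2, Ppp1r14a and Pglyrp1. The median of the cDC2a list was -1.49 and -1.31, against -0.02 and -0.02 for all genes.

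Of 18 pDC genes 5 were counted, and Bst2, Tcf4 and Lag3 were higher. The summed level of the 18 was 1821 and 1777 CPM in the cells, 789.7 and 788 CPM in C0 and 19278 and 19580.2 CPM in C14, and 2 of the 18 were at 0 in each library. Klk1, a kallikrein of pDCs, had no UMI, against 1100.3 and 1019.7 CPM in C14. For a count of 0 in these cells the exact Poisson interval reached up to 0.936 and 0.418 CPM. Dntt, a DNA polymerase of lymphoid progenitors, had none either. Ly6d was at 3.55 and 9.52 CPM against 3946 and 4004 CPM in C14, and Pacsin1 at 2.54 and 2.95 CPM against 191 and 204 CPM.

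Siglech, a sialic acid-binding receptor of pDCs, was intermediate. It stood at 121 CPM (110.4 to 132) and 94.5 CPM (88.2 to 101) in the cells, at 2.15 and 1.65 CPM in C0 and at 1927 and 2148 CPM in C14. It missed the 50 CPM mean in Batf3-/- and was left out of the counts. After thinning, 18.2% and 14.3% of the cells held a Siglech UMI, against 0.379% and 0.238% of C0, 22.2% and 15.3% of C3 cells with Ccr2 and 98% and 97% of C14. Klk1 and Ly6d in the thinned cells reached 0% and 0% and 0.418% and 0.822%, while the share in C14 was 72.4% and 70.3% and 97.4% and 95%. Siglech thus stood far above C0 in the cells while Klk1 and Ly6d were at or near 0.

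Among cDC1 genes 3 of 14 were counted, with Cd8a higher and Id2 lower. Xcr1, the chemokine receptor that defines cDC1, was at 3.3 and 0.453 CPM against 4.54 and 3.47 CPM in C0, and Cadm1, an adhesion molecule of cDC1, at 5.07 and 4.65 CPM against 3.03 and 2.51 CPM. Clec9a, a receptor for dead cells, was at 16.2 and 10.5 CPM against 6.1 and 2.1 CPM. The median log2 ratio of the 3 counted genes was -0.67 and -0.54, and the summed level of the 14 was 676 and 647 CPM in the cells and 805 and 648 CPM in C0.

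Of 14 cDC2b and monocyte genes 4 were counted and Clec12a was higher, and the median log2 ratio of the 4 was 0.68 and 0.63. The summed level of the 14, Ccr2 included, was 2889 and 2807 CPM in the cells. It was 1803 and 1781 CPM in C0 and 6599 and 6108 CPM in C3 cells with Ccr2. Fcgr1, a monocyte Fc receptor, was at 0.254 and 0.113 CPM. The pre-DC and transitional DC list gave 2 higher of 4 counted, Sox4 and Flt3. Of 7 counted genes of a transitional DC list used in the study, Tcf4, Flt3, Cd8a and Bst2 were higher, and of 17 counted genes of its Siglech DC list 6 were higher. No gene of either list was past 2-fold lower. Both lists share genes with the lists above. The study took these signatures from earlier publications of other groups and had already found C3 aligned with them, so they are no independent evidence.

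Markers of other lineages were low. The summed level of 6 B cell genes was 112 and 110.1 CPM against 50.2 and 68.1 CPM in C0, with 3 of 6 at 0 in WT. Cd79b, which forms part of the B cell receptor, made up most of it at 84.2 and 75.4 CPM against 29.2 and 35 CPM and was among the 34 genes, while Cd79a was at 0 and 2.72 CPM. Summed levels were 2.03 and 0.68 CPM for 3 T cell genes, 0.254 and 1.13 CPM for 6 NK cell genes, 0.761 and 1.02 CPM for 5 neutrophil genes and 8.37 and 23.5 CPM for 5 erythroid genes, against 1.6 and 1.92, 0.733 and 0.731, 2.02 and 1.92 and 14.4 and 14.3 CPM in C0. No gene of these 4 lists had enough counts to compare.

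Among regulators of G protein signalling, Rgs1 was past 2-fold from both neighbouring groups. Of 7 counted Rgs genes 2 were lower than in C0, Rgs1 at 469 and 379.6 against 1267 and 1036 CPM and Rgs3 at 38.8 and 44.3 against 117 and 107 CPM. Against C3 cells with Ccr2, 3 of 6 were higher, Rgs1, Rgs2 and Rgs12, beside 1.59% of all 2513 genes counted in that comparison. Mature DC genes gave 3 higher of 8 counted, Fscn1, Il4i1 and Fabp5, with a median of 0.56 and 0.45. Of these, Fscn1 reached the mean of 50 CPM only through the cells themselves, and so did Fabp5 in WT, where C0 held 46.8 CPM. Ccr7, the receptor that guides mature DCs to lymph nodes, was at 12.4 and 17.8 CPM against 14 and 17.4 CPM. Of 10 counted interferon response genes Bst2 was higher and Isg15 and Ifitm1 were lower, with a median of -0.53 and -0.49. None of 18 counted immediate early genes and none of 13 NF-kB genes was past 2-fold, and no Toll-like receptor gene of 12 reached the 50 CPM mean.

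The other lists held at most 1 gene past 2-fold each way. Gpr183, a receptor for oxysterols that guides cDC2 positioning in the spleen, was higher at 218 and 199 CPM against 94.6 and 85.6 CPM, and Selplg, a selectin ligand, was lower at 100.2 and 91.8 CPM against 201 and 201 CPM, among 5 counted homing receptors. Of 6 counted chemokine and cytokine genes the inflammatory cytokine Il1b was lower. Of 11 inhibitory and costimulatory molecules Lag3 was higher and Havcr2 lower, of 5 C-type lectins and Siglecs Clec12a was higher and Clec4a1 lower, and of 8 oxidase and Fc receptor genes Ncf4 was lower. The 1 counted Ly6 gene, Ly6e, was not past 2-fold, the 1 counted Sox gene was Sox4, and the 1 counted cell cycle gene was Stmn1. By the deposited phases, 12.3% (9.51 to 15.6) and 10.3% (8.44 to 12.4) of the cells were in S phase, against 8.22% and 6.15% of C0 and 6.22% and 3.87% of C3 cells with Ccr2. The summed level of 16 cell cycle genes was 266 and 268 CPM, against 158 and 153 CPM in C0. Stmn1 alone made up 113 and 122 CPM of it in the cells and 18.9 and 22.8 CPM in C0. Most of the difference in the sum was thus that of Stmn1. Whether the phase calls reflect cycling was not tested.

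Within C3, cells with Ccr2 were compared next. Against them, 40 genes were more than 2-fold higher and 51 more than 2-fold lower in the cells without Ccr2, of 2513 counted, or 1.59% and 2.03%, Ccr2 left out. In cells of at least 8000 UMIs the counts were 28 and 41, and 28 and 38 of those genes were shared. Esam was at 2.69 and 2.84 CPM and Cd7 at 578 and 618 CPM in C3 cells with Ccr2. Esam was thus higher and Cd7 lower in the cells without Ccr2. Sox4, at 299 and 305 CPM there, was among the higher genes with a log2 ratio of 1.16 (1.03 to 1.28) in WT and 1.33 (1.26 to 1.40) in Batf3-/-, although in WT cells of at least 8000 UMIs it was 0.96 and no longer past 2-fold.

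The 8 genes furthest above C3 cells with Ccr2 also stood higher in C0 than in C3 cells with Ccr2. Tbc1d4, a Rab GTPase-activating protein, was at 712 and 689.9 CPM, against 141 and 139 CPM in C3 cells with Ccr2 and 741 and 692 CPM in C0. Ffar2, a receptor for short-chain fatty acids, was at 129.6 and 155 CPM, against 22.4 and 36.3 and 439.8 and 472 CPM. Ppp1r14a, an inhibitor of myosin phosphatase, was at 132 and 118 CPM, against 31.8 and 29.2 and 373 and 293 CPM. In Tbc1d4 the cells stood at the level of C0, whereas Ffar2 and Ppp1r14a lay below it.

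Ube2e2, a ubiquitin-conjugating enzyme, and Rogdi were at 103 and 97.4 and at 269 and 292 CPM in the cells, against 24.7 and 18.6 and 73.5 and 79.8 CPM in C3 cells with Ccr2. Among cytokines and secreted proteins, Ltb, the membrane-anchoring chain of lymphotoxin, was at 1048 and 1092 CPM, against 322 and 282 CPM and 704 and 947 CPM in C0. The chemokine Ccl5 was at 352 and 160 CPM, against 70.9 and 47 and 879 and 313 CPM. Apoe, the lipid carrier, was at 415 and 333 CPM and higher than in both neighbours, at 107 and 50.8 CPM in C3 cells with Ccr2 and 202 and 181 CPM in C0.

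Genes furthest below C3 cells with Ccr2 included several surface molecules of monocytes and pDCs. Ly6c2, the Ly6C antigen, was at 18 and 16.7 CPM against 358 and 311 CPM, a log2 ratio of -4.31 (-4.68 to -3.96) in WT and -4.22 (-4.47 to -3.98) in Batf3-/-. The lectin Cd209d was at 46.7 and 45.9 CPM against 822 and 540.2 CPM, and its relative Cd209a at 101 and 99.6 CPM against 621 and 541 CPM. Both Ly6c2 and Cd209d were near 0 in C0, with 0.825 and 0.183 and 0.825 and 1.23 CPM.

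Ly6a, or Sca-1, was at 32 and 13.3 CPM against 209 and 101 CPM, and the chemokine receptor Ccr1 at 16 and 17.5 CPM against 104 and 98.2 CPM. Crip1, a LIM protein, was at 181 and 195 CPM against 943 and 1093 CPM. Lgals1, a galectin, was at 25.9 and 27.5 CPM against 123 and 199 CPM, and Fcgrt, the neonatal Fc receptor, at 30.9 and 30.9 CPM against 143 and 148 CPM. Lgals1 was also below C0, which held 47.9 and 45.1 CPM. By list, all 4 counted Ly6 genes, 5 of 10 pDC genes and 5 of 11 pre-DC and transitional DC genes were lower than in C3 cells with Ccr2. One gene of the last list, Sox4, was higher. Over all genes counted, 2.03% were lower. Ly6a, Ly6c2, Ly6i, Cd209d, Cd33 and Cx3cr1, among others, reached the mean of 50 CPM only through C3 cells with Ccr2. Such genes could enter only as lower, so these counts are a description. The median log2 ratio of the pDC list was -1.06 and -1.12, against 0.00 and 0.01 for all genes.

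Siglech and Flt3 differed little between the 2 kinds of C3 cell, and Cd8a and Cd24a differed more. Cd8a was at 204 and 254 CPM without and 455 and 394 CPM with Ccr2, and it was past 2-fold in WT but not in Batf3-/-. Cd24a was at 87.2 and 85.8 CPM against 144 and 172 CPM, a log2 ratio of -0.72 and -1.01. Siglech was at 121 and 94.5 CPM against 148 and 112 CPM, a log2 ratio of -0.29 and -0.25. Flt3 was at 242 and 233 CPM against 276 and 258 CPM.

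To see how far the absence of a Ccr2 UMI went with the absence of its companions, 3 genes that were near 0 in C0 were examined jointly, namely Ly6c2, Cd209d and Ccr1. At least 1 UMI of these was held by 12.5% (9.70 to 15.8) and 14.2% (12.1 to 16.5) of the cells without Ccr2. The share was 77.8% and 78.9% in C3 cells with Ccr2, and 1.29% and 1.45% in C0. The share in the cells thus lay between those of the neighbouring groups in both libraries. These genes were chosen after their values were seen.

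Cells just outside the rule, with 1 Ccr2 UMI, numbered 67 in WT and 133 in Batf3-/-, and those with 2 numbered 38 and 77. Sox4 stood at 666, 479, 286 and 205 CPM in WT cells with 0, 1, 2 and at least 3 Ccr2 UMIs, and at 767, 359, 352 and 278 CPM in Batf3-/- cells. Ltb went the same way, with 1048, 550, 348 and 192 CPM in WT and 1092, 484, 340.4 and 201 CPM in Batf3-/-. Cd209d went the opposite way, with 46.7, 413, 578 and 1118 CPM in WT and 45.9, 251, 361 and 674 CPM in Batf3-/-.

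Tbc1d4 differed mainly between 0 and 1 Ccr2 UMI, with levels of 712, 253, 166 and 73.7 CPM in WT and 689.9, 211, 166 and 109 CPM in Batf3-/-. Siglech differed little across the classes, at 121, 134, 152 and 153 CPM in WT and 94.5, 118, 102 and 113 CPM in Batf3-/-. Cd8a was highest in cells with 1 or 2 Ccr2 UMIs, at 204, 499, 487 and 422 CPM in WT and 254, 395, 486 and 375 CPM in Batf3-/-. Median depth was 7894 and 8678 UMIs at 0 Ccr2 UMIs and 9668 and 9970 at 1, so depth differed across the same step and its part was not tested.

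**Figure D3:**
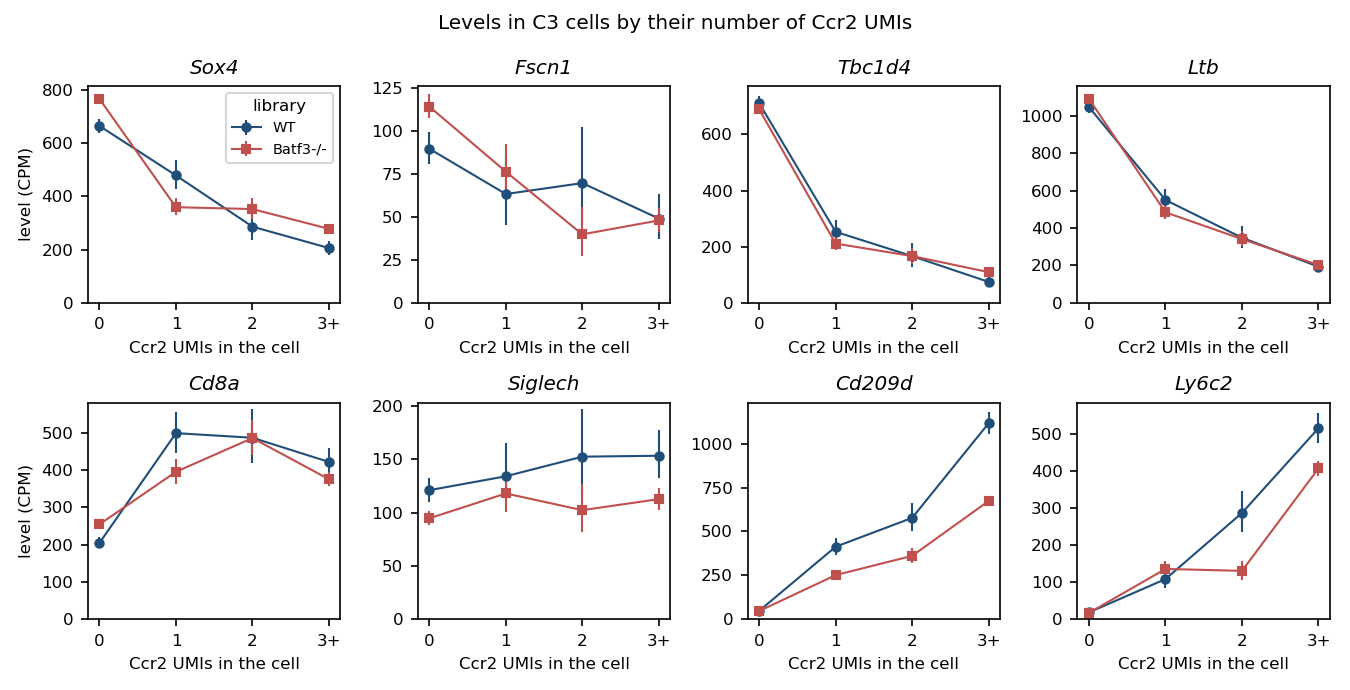
Levels (CPM) of 8 genes in C3 cells with 0, 1, 2 and at least 3 Ccr2 UMIs in the WT (circles) and Batf3-/- (squares) library, with exact Poisson 95% intervals. Sox4, Tbc1d4 and Ltb were highest at 0 Ccr2 UMIs, Cd209d and Ly6c2 were highest at 3 or more, and Siglech lay between 94.5 and 153 CPM in every class.

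The cells lay between C0 and C3 cells with Ccr2 at most genes that told those apart. There were 103 genes more than 2-fold higher and 147 more than 2-fold lower in C3 cells with Ccr2 than in C0 in both libraries, or 4.04% and 5.76% of 2550 counted. The cells did not enter that comparison, but C3 cells with Ccr2 are the other side of the rule that chose them, so the positions below are a description. In both libraries the cells were between the groups at 91 of the 103 and 139 of the 147. On a log2 scale from C0 (0%) to C3 cells with Ccr2 (100%), with 0.5 CPM added, the median position was 54.9% and 53.0% for the genes higher in C3 cells with Ccr2 and 49.2% and 48.2% for those lower.

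Positions differed by gene. Siglech was at 95.1% and 95.7%, Flt3 at 85.0% and 88.4%, Cd8a at 80.6% and 91.2% and Cd24a at 80.6% and 74.3%. Tcf4 was at 57.5% and 59.7%, Bst2 at 53.2% and 50.3% and Ly6c2 at 47.1% and 52.7%, whereas Tbc1d4 was at 2.40% and 0.154%. On this log scale Siglech thus lay close to C3 cells with Ccr2 and Tbc1d4 close to C0, while the level of Cd8a in WT was still less than 0.5 of that in C3 cells with Ccr2. Sox4, at 144% and 155%, lay beyond C3 cells with Ccr2, as did Stmn1, Tmem176a, Tmem176b and Tubb5 among the 103 genes and Ccnd2, Epsti1 and Isg15 among the 147. On the far side of C0 lay Lgals1, Mpeg1 and Tep1 of the 103 and Ltb and Lysmd2 of the 147.

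A few genes were highest or lowest in the cells. Against both neighbours, 13 of 2355 genes (0.552%) were more than 1.5-fold higher in both libraries and 9 (0.382%) were more than 1.5-fold lower. The 13 were Sox4, Fscn1, Marcksl1, Hspb1, Gpm6b, Fabp5, Apoe, Chka, Zfp36l1, Pot1b and the immediate early genes Fos, Fosb and Jun. Marcksl1, an actin- and membrane-binding protein, was at 164 and 187 CPM, against 43.1 and 62.3 in C0 and 95.1 and 99.5 CPM in C3 cells with Ccr2. Jun, an AP-1 subunit, was at 2504 and 2494 CPM, against 1636 and 1627 and 1560.1 and 1507 CPM.

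The 9 genes lowest in the cells were S100a10, Ifi27l2a, Unc119, Csf2ra, Selplg, Slfn5, Mndal, Trim30a and Ifi203. S100a10, an annexin partner, was at 35.3 and 31.2 CPM, against 159 and 112 in C0 and 96 and 111 CPM in C3 cells with Ccr2. Ifi27l2a, an interferon-induced gene, was at 137 and 111 CPM, against 469 and 352 and 440.4 and 362 CPM. Csf2ra, the alpha chain of the GM-CSF receptor, was at 40.3 and 42.2 CPM, against 94.8 and 96.8 and 79.8 and 66.8 CPM.

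The cells were spread along this range cell by cell. The 103 genes higher in C3 cells with Ccr2 than in C0 made up a median of 2.19% of the UMIs of a cell without Ccr2 in WT (quartiles 1.71% to 3.04%) and 2.30% (1.72% to 3.03%) in Batf3-/-. The median was 1.27% and 1.29% in C0 and 4.35% and 4.35% in C3 cells with Ccr2. Of the cells, 22.5% and 22.6% fell within the 10 to 90 percentile range of C0 and 24.2% and 24.9% within that of C3 cells with Ccr2. By these 103 genes the rest lay mostly between those ranges. By the 147 genes lower in C3 cells with Ccr2, 26.7% and 37.5% of the cells fell within the range of C0. Within that of C3 cells with Ccr2 fell 35.1% and 31.6%, so that fewer cells were left outside both ranges.

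**Figure D4:**
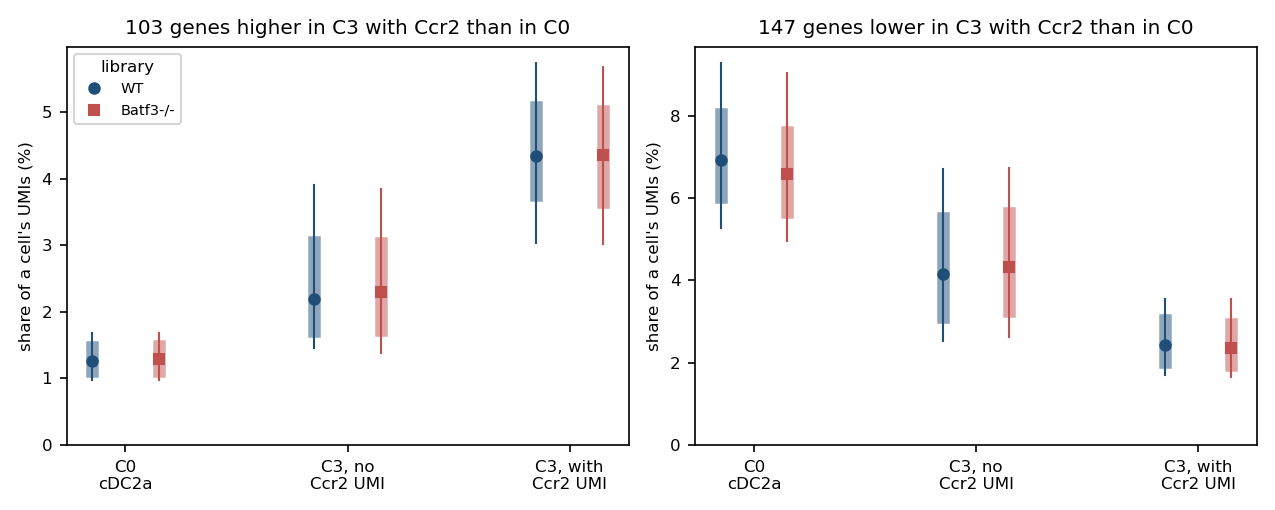
Share of a cell's UMIs (%) from the 103 genes higher (left) and the 147 genes lower (right) in C3 cells with Ccr2 than in C0, per group for the WT (circles) and Batf3-/- (squares) library. Points are medians over cells, thick bars quartiles and thin lines 10 to 90 percentiles, and the cells without Ccr2 sat between the other groups with medians of 2.19% and 2.30% on the left and 4.15% and 4.32% on the right.

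The cells of each library were then put in 4 bins of equal size by their share of UMIs from the 103 genes, with the gene in view left out of it. Sox4, Cd8a, Tcf4, Siglech, Ly6c2 and Cd209d are among the 103 genes and Dtx1 and Id2 among the 147, so their course over the bins is partly built in and is given as a description. Sox4 was high in each bin and highest in the third, with 602, 671, 798 and 588 CPM from the lowest to the highest bin in WT and 631, 789, 886 and 746 CPM in Batf3-/-. Cd8a was almost absent from the lowest bin and high in the last, with 3.45, 39.3, 132 and 571 CPM in WT and 7.09, 62.6, 216 and 648 CPM in Batf3-/-. Tcf4 went up mainly in the last bin, with 163, 187, 245 and 615 CPM in WT and 173, 197, 305 and 619.6 CPM in Batf3-/-.

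Siglech went up over the bins, with 19.5, 44.8, 111 and 275 CPM in WT and 8.59, 63.6, 108 and 177 CPM in Batf3-/-. Ly6c2 and Cd209d were found almost entirely in the last bin, at 60.4 and 53.3 CPM of Ly6c2 and 163 and 152 CPM of Cd209d, and at less than 10 CPM in each lower bin.

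Esam, Dtx1 and Id2 were lowest in the last bin, and Cd7 was highest there. Esam was at 41.4, 14.9, 6.8 and 4.51 CPM in WT and 34.4, 25.3, 8.77 and 2.02 CPM in Batf3-/-, so that the lowest bin came near the 43.5 and 42.8 CPM of C0. Dtx1 was at 102, 84.4, 27.2 and 13.5 CPM in WT and 94.5, 81.2, 34.2 and 10.5 CPM in Batf3-/-. Id2 was at 149.6, 92.9, 63.2 and 29.8 CPM in WT and 144, 92.2, 58.3 and 24.3 CPM in Batf3-/-. Cd7 was at 333, 337, 451 and 525 CPM in WT and 397, 394, 447 and 473 CPM in Batf3-/-.

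The genes highest in these cells did not share 1 pattern over the bins. Fscn1 varied little, at 81.7, 91.8, 107 and 77.6 CPM in WT and 92, 99.3, 136 and 124 CPM in Batf3-/-. Apoe was lowest in the first bin, with 132, 380.1, 479.9 and 606 CPM in WT and 101, 390.2, 461 and 354 CPM in Batf3-/-. Fabp5, a fatty acid-binding protein, was lowest in the last bin, with 182, 183, 154 and 74.9 CPM in WT and 249, 206, 193 and 103 CPM in Batf3-/-.

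Surface protein was measured apart from the transcripts that chose the cells. Of 11 unnamed adt series, 4 could be tied to an antibody because the series and the gene of the antibody were each other's best correlate over all cells. These were CD8A (Pearson r 0.667), CD24 (0.579), CD4 (0.357) and CD11B (0.264). For CD11B the next gene, Sirpa, was close at 0.257, so that this assignment is the least certain, and the CD24 series correlated with Xcr1 at 0.551. Total adt counts per cell were similar, with medians of 525 and 486 in the cells and 508 and 465 in C0. The study reports a substantial background count for each antibody. It based the background of CD8A and CD24 on C0 and that of CD11B and CD4 on C4, and set counts under a threshold to 0. No threshold was applied here, so the raw counts below include background.

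CD8A adt counts had a median (quartiles) of 53 (42 to 75.5) and 52 (42 to 73) in the cells, against 41 (35 to 49) and 41 (35 to 48) in C0 and 65 (45 to 89) and 59 (46 to 78) in C3 cells with Ccr2. CD24 adt, the protein of Cd24a, was at 58 (42 to 86) and 52 (37 to 76), against 34 (28 to 40) and 31 (25 to 39) and 59 (43 to 85) and 50.5 (36 to 74). In both libraries the medians of CD8A and CD24 were above those of C0, and the upper quartile of C0 lay below the median of the cells. CD11B adt, the integrin alpha M of cDC2 and myeloid cells, was lower at 36 (30 to 43) and 29 (24 to 36), against 51 (42 to 62) and 45 (35 to 57) in C0 and 36 (29 to 42) and 28 (23.8 to 35) in C3 cells with Ccr2. In C14 the CD11B median was 36 and 27. The transcript Itgam, which encodes CD11B, was at 15 and 14.5 CPM in the cells against 50.3 and 55.2 CPM in C0. CD4 adt overlapped widely, at 34 (27 to 44) and 35 (29 to 45) against 38 (30 to 48) and 39 (31 to 48) in C0.

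Transcript and tag were set side by side within the cells, although the CD8A and CD24 series had been named by their correlation with these transcripts over all cells. In WT the 149 cells with a Cd8a UMI had a median CD8A adt count of 80 and the 330 without one had 47, and in Batf3-/- the 382 and 591 cells had 75 and 46. In C0 the values were 42 and 41 in WT and 43 and 41 in Batf3-/-, so that the medians nearly coincided there. For CD24, cells with a Cd24a UMI had 77 and those without had 49 in WT, against 62 and 45 in Batf3-/-. Cells with a Cd8a UMI were also deeper, with a median of 8316 against 7662 UMIs in WT and 9418.5 against 8130.0 in Batf3-/-, and the part of depth was not tested.

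**Figure D5:**
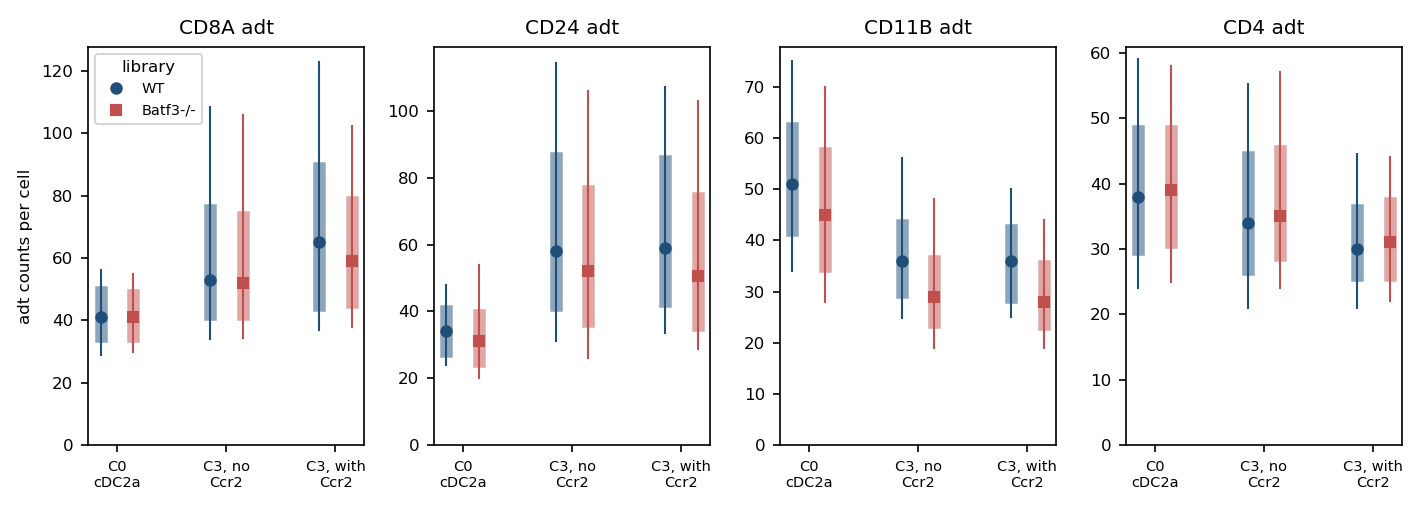
Raw adt counts per cell for CD8A, CD24, CD11B and CD4 in C0, in C3 cells without and with a Ccr2 UMI, for the WT (circles) and Batf3-/- (squares) library. Points are medians over cells, thick bars quartiles and thin lines 10 to 90 percentiles, and the median CD8A count was 53 and 52 in the cells without Ccr2 against 41 and 41 in C0.

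Surface protein, which had no part in making the bins, was then read across them, although the transcripts Cd8a and Cd24a were among the 103 genes. CD8A adt medians were 44, 50, 56.5 and 72 from the lowest to the highest bin in WT and 43, 48, 56 and 75 in Batf3-/-. CD24 adt medians were 48.5, 54, 59 and 76 in WT and 42.5, 51, 56 and 63 in Batf3-/-. CD11B adt medians went down in Batf3-/- with 33, 30, 28 and 26, and were 38, 36, 37 and 33 in WT. Median UMIs per cell also went up over these bins, from 7253 to 9128 in WT and from 7634 to 9732 in Batf3-/-, and median adt totals from 509 to 550 and from 470.5 to 499, whose part was not tested. Across the Ccr2 rule, the median CD8A adt count was 53 in WT cells with 0 and 66 in those with 1 Ccr2 UMI, and 52 and 62 in Batf3-/-. CD4 adt medians were 34 and 30 in WT and 35 and 32 in Batf3-/-. CD24 adt medians were 58 and 61 in WT and 52 and 51 in Batf3-/-, and those of CD11B were 36 and 36, and 29 and 29.

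The genotypes were compared last, as 1 library against 1 library with no replicate. Batf3, the deleted gene, was at 101 CPM in WT and 0.34 CPM in Batf3-/-, the latter from 3 UMIs, which fits the labels. Of 2603 genes counted in the cells, 4 (0.154%) were more than 1.5-fold higher and 7 (0.269%) more than 1.5-fold lower in Batf3-/-. These are fold cut-offs without a test. For C3 as a whole, the study reports Batf3 alone as significantly different between the genotypes. With mitochondrial and ribosomal protein UMIs left out of the total, which brought 3500 genes to 50 CPM, 8 were higher and 8 lower, among them the same 4 and 7. Sox4 itself was at 666 CPM in WT and 767 CPM in Batf3-/-, a log2 ratio of 0.21 (0.14 to 0.27), and Esam and Cd7 had ratios of 0.07 (-0.36 to 0.53) and 0.04 (-0.04 to 0.12).

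Beside Batf3, the lower genes were Ccl5, Efhd2, Hes1, Psap, Nr4a1 and Gm47283. The chemokine Ccl5 was at 352 CPM in WT and 160 CPM in Batf3-/-, a log2 ratio of -1.14 (-1.25 to -1.03), and its ratio in C0 was -1.49. Efhd2, a calcium-binding actin regulator, was at 201 CPM in WT and 115 CPM in Batf3-/-, with a ratio of -0.80 (-0.93 to -0.66) and of -1.22 in C0. For both genes C0 thus went the same way. Hes1, a Notch target and repressor, was at 104 CPM in WT and 65.2 CPM in Batf3-/-, with a ratio of -0.67 (-0.86 to -0.48), and of -0.24 in C0. In cells of at least 8000 UMIs the ratio of Hes1 was -0.56 and no longer past 1.5-fold. Psap, the precursor of lysosomal saposins, was at 338 CPM in WT and 214 CPM in Batf3-/-, with a ratio of -0.66 (-0.76 to -0.55) in the cells and of -0.03 in C0, a difference that was not tested.

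The 4 higher genes were Il1b, Mndal, Cd69 and Ifitm1. Il1b was at 35 CPM in WT and 74.5 CPM in Batf3-/-, with a log2 ratio of 1.09 (0.82 to 1.37), and of 0.59 in C0. Mndal, an interferon-inducible nuclear protein, was at 74.3 CPM in WT and 156 CPM in Batf3-/-, with a ratio of 1.07 (0.89 to 1.26), and of 1.10 in C0. Cd69, an early activation marker, was at 39.8 CPM in WT and 77.1 CPM in Batf3-/-, with a ratio of 0.95 (0.70 to 1.21), and of 0.38 in C0. Ifitm1, a membrane protein induced by interferon, was at 74.8 CPM in WT and 116 CPM in Batf3-/-, with a ratio of 0.64 (0.45 to 0.83), and of 0.85 in C0. With per-cell means the ratio of Ifitm1 was 0.57 and no longer past 1.5-fold. Celf4, an RNA-binding protein, was the next highest at 0.47 (0.23 to 0.73) and was not past 1.5-fold. The ratios of all 5 had the same sign in C0.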

How the data were processed

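Transcripts and antibody tags were counted in single spleen cells of 2 pooled samples, WT and Batf3-/-, with 1 library each. The deposited UMI counts per gene and the adt counts per tag were made by the authors with Cell Ranger on GRCm38 (the submitters' processing notes also name bcl2fastq 2.2.0 and Seurat 3.0.5). The authors evened the sequencing depth of the libraries when combining them, removed cells by gene number and by mitochondrial and ribosomal share, and clustered on transcripts. Clusters, phases and SingleR labels were used as deposited. The mitochondrial and ribosomal shares of each cell are deposited as a fraction. The deposited adt values on a natural log scale are centered log ratios within a library and served as an alternative. The deposited log-normalized transcript tables were not used.

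UMIs were summed per group and library and given as CPM. The totals were 122530055 and 114517073 UMIs, with a median of 8374.5 and 8516 per cell. Poisson, Clopper-Pearson and conditional binomial intervals (95%) cover counting error only. Ratios against a sum of 0 used 3 counts in its place. The scripts were tested on simulated data. A gene was counted at a mean of 50 CPM or more in the 2 groups compared, in each library. It was called past 2-fold in both libraries (1.5-fold between genotypes). Ccr2 was left out of the counts against C0 and within C3, and so is not among the 103 genes. The text names the 10 genes furthest each way against C0, 8 each way against C3 cells with Ccr2 and 5 each way between genotypes, ranked by the smaller of the ratios, besides members of 33 gene lists, and 1 of these genes is not reported here. Genes highest or lowest against both neighbours and the 3 companions of Ccr2 were named by their values. The cells and lists were chosen with earlier results of these data known. Cells were thinned to 2000 UMIs at random with a fixed seed for shares of cells with a UMI. The 11 adt series carry no names, and 4 were matched by correlation with the genes of the listed antibodies. No doublet caller was run. An alternative left out cells over 20000 UMIs or with UMIs of 2 or more marker genes of other lineages. Other alternatives were the mean of per-cell CPM, mitochondrial and ribosomal UMIs left out, a mean of 20 or 100 CPM, cells of at least 8000 UMIs and G1 cells. Gene positions are from GENCODE M21. Python 3.11.15, numpy 2.4.6, scipy 1.17.1, pandas 2.3.3 and matplotlib 3.10.9 were used.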

Additional observations from a re-analysis of the deposited data

Results flagged for a closer look

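At 3 genes among those named or listed, the ratio of the Sox4+ cDCs without Ccr2 to C0 had opposite signs in the libraries, with both counting intervals clear of 0. Ifitm2, an interferon-induced membrane protein, had a log2 ratio of -0.37 in WT and 0.49 in Batf3-/-. Cd209a, a lectin of cDC2b and monocyte-derived cells, had a log2 ratio of -0.20 in WT and 0.28 in Batf3-/-. Jund, an AP-1 subunit, had a log2 ratio of -0.11 in WT and 0.067 in Batf3-/-. With 1 library per genotype, the difference between the libraries was not tested at any of the 3.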

How the results depend on the processing

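With a mean of 20 CPM in place of 50, which counts more genes, 75 genes were higher and 128 lower than in C0, 87 higher and 100 lower than in C3 cells with Ccr2, and 18 higher and 15 lower in Batf3-/- than in WT. With a mean of 100 CPM the counts were 17 and 27, 22 and 23, and 1 and 3. With mitochondrial and ribosomal protein UMIs left out, 53 genes were higher than in C0 and 8 higher in Batf3-/-, and in cells of at least 8000 UMIs 7 were higher in Batf3-/-. The other counts over all genes stayed within 1.5 times. Some counts by gene list, which rest on few genes each, did not. The share of C3 cells without a Ccr2 UMI was 53.3% and 53.2% in cells of at least 8000 UMIs, 72.9% and 67.9% without doublet-like cells, 83.0% and 81.1% after thinning to 2000 UMIs and 73.8% and 69.4% after thinning to 5000. The doublet rule also removes cells with Ccr9 or Clec9a UMIs, and it took 59 and 139 C3 cells with Ccr2 and 32 and 67 without. Without thinning, 81.8% and 84.9% of the cells held a Sox4 UMI, 9.60% and 11.8% an Esam UMI and 86.8% and 89.2% a Cd7 UMI. At 5000 UMIs the shares were 73.8% and 79.1%, 5.37% and 7.82%, and 78.1% and 81.4%. The log2 ratio of median adt to C0, averaged over both libraries, was 0.36 for CD8A, 0.76 for CD24, -0.57 for CD11B and -0.16 for CD4. Differences of the mean deposited centered log ratio, divided by the natural log of 2, were 0.25 for CD8A, 0.39 for CD24 and -0.24 for CD11B. They are not log2 ratios of counts, so only their direction can be set beside the values above. With means CD8A was at 0.57, and in cells of at least 8000 UMIs CD8A was at 0.46, CD11B at -0.75 and CD4 at -0.23. Of 460 alternative values of the ratios of named genes, 456 kept their direction and side of the fold threshold and 0 changed sign. The exceptions were Sox4 against C3 cells with Ccr2 in WT (0.96) and Hes1 between genotypes (-0.56), both in cells of at least 8000 UMIs, Ifitm1 between genotypes with per-cell means (0.57), and Celf4 in G1 cells (0.61), which was then past 1.5-fold. The cause was not tested. No paired analysis was possible because each genotype had 1 library.

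Depth limits the choice of cells itself: a cell with few UMIs can hold Ccr2 transcripts that were not captured, and its absence from the counts is not its absence from the cell. The comparison of genotypes rests on 1 pool each, so that pool, library, mouse colony and genotype cannot be told apart.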
